A study of Mus musculus with 12 samples.

Results

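The glucocorticoid receptor gene Nr3c1 and 9 genes known to supply its ligand or to answer to it were followed in mouse liver after hepatocyte deletion of PPARγ, a lipid-regulating nuclear receptor. The 10 genes, found by name in the count tables, are Nr3c1, Hsd11b1, Fkbp5, Zbtb16, Tsc22d3, Tat, Klf9, Dusp1, Sgk1 and Igfbp1, of 54532 genes in all. The list was drawn up when results of these libraries were known, and the set was in part chosen by measured values, the only one known here being the large rise of Zbtb16 normalized CPM at 5 months. The comparison of genotypes at 5 months is therefore given for the 10 genes as a description, with no p. So are the other comparisons that use the 5-month PPARγ-KO libraries (their change over time and the difference between the times). In these, a call (adjusted p below 0.05) says only on which side of the threshold a value lay, and nothing is read from it. The change over time in wild-type uses the 5-month wild-type libraries, which are also part of the 5-month comparison. Its p-values and calls for the 10 genes are therefore a description.

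Liver RNA of male mice with floxed PPARγ alleles was sequenced, 3 libraries in each of 4 groups. At 8 weeks of age the mice had received an AAV8 vector in which the hepatocyte-specific TBG promoter drove either Cre recombinase (the group labelled PPARγ-KO) or eGFP (littermates, called wild-type), so other liver cells kept the gene in both groups. All mice ate a fast-food diet (FFD) with 21% fat by weight, 0.2% cholesterol and 34% sucrose by weight, plus sugared water, and livers were taken after 2 or 5 months. The hour of tissue collection, and whether both times were sequenced together, are not given in the sources used here.

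Glucocorticoids, corticosterone in mice, enter the cell and bind the receptor, which waits in the cytoplasm in a complex with heat shock protein 90 and its partner proteins. The bound receptor moves to the nucleus, where it binds short palindromic DNA elements and raises or lowers transcription of nearby genes. In liver it is best known for driving amino acid breakdown and glucose output during fasting, and the hormone itself rises and falls over the day.

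That palindrome, written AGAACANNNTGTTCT, reads the same on both strands, and its half-sites are AGAACA and TGTTCT. RefSeq promoters (GRCm38.p6) were at hand for 8 of the 10 genes, 15 promoters in all, and the 250 bases before each start were searched on both strands. Those of Zbtb16 and Nr3c1 were not analysed here. The full palindrome was in 1 of the 15, a promoter of Sgk1, and in 3 of all 32851 promoters (0.00913%). A half-site, those within the palindrome included, was in 4 of the 15, 3 of the 6 of Sgk1 and 1 of the 3 of Tsc22d3, where all promoters had one in 16.1%. The Sgk1 window with the palindrome is printed with those of Fkbp5 and Tat, which hold neither form and belong to genes that stood higher in livers labelled PPARγ-KO after 5 months. Capitals mark the half-sites and the palindrome, and a window without capitals says only that these letters are not in those 250 bases.
Sgk1, chr10:21993640-21993889, plus strand: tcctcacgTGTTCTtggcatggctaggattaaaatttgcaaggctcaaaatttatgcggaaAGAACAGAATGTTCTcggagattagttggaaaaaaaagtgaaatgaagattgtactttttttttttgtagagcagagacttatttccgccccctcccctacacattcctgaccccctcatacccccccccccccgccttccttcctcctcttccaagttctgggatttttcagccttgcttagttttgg
Fkbp5, chr17:28486150-28486399, minus strand: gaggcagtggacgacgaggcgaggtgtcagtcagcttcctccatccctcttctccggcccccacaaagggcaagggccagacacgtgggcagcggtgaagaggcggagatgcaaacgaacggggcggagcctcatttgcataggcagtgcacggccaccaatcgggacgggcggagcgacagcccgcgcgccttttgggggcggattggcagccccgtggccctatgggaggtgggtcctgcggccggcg
Tat, chr8:109990186-109990435, plus strand: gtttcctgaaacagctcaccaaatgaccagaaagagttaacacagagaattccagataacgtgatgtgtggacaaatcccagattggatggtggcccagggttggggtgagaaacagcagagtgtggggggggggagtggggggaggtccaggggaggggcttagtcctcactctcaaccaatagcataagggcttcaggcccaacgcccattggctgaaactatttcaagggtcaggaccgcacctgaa
In the Sgk1 window the palindrome AGAACAGAATGTTCT begins 189 bases before the start, and another half-site begins 242 bases before it. None of these letters says whether the receptor was bound.

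Libraries held 16367775 to 27452284 counts, and the 10 genes had 51 to 55952 counts each per library. Levels are given as normalized CPM, counts per 1000000 after TMM scaling of library size. Changes are log2 fold changes from edgeR with their standard error (SE), and a gene is called when its p, adjusted over all genes tested, is below 0.05. Pparg, the targeted gene, was not lower where it should have been deleted. It stood at 37.6 to 41.4 CPM in wild-type and 50.4 to 66.5 in those labelled PPARγ-KO at 2 months, and at 36.9 to 41.4 and 75.0 to 92.9 at 5 months. Counts over the whole gene do not show whether the floxed exons were lost, and protein was not analysed here, so the groups are named by their labels. Hepatocyte markers were abundant in every library, with a sum over 10 genes of 58100 to 89300 CPM. At 2 months that sum was 59100 to 74010 CPM in wild-type and 76480 to 89300 in PPARγ-KO libraries, so the groups did not overlap. The sum over 8 stellate cell markers was 413.8 to 585.8 and 309.8 to 350.7 CPM at 2 months, also without overlap. The 2-month wild-type replicate 1 was the library most unlike its own group, and results that turn on it are given without it. The labels do not say that replicates are separate animals, so p-values measure the spread between libraries.

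**Figure D1:**
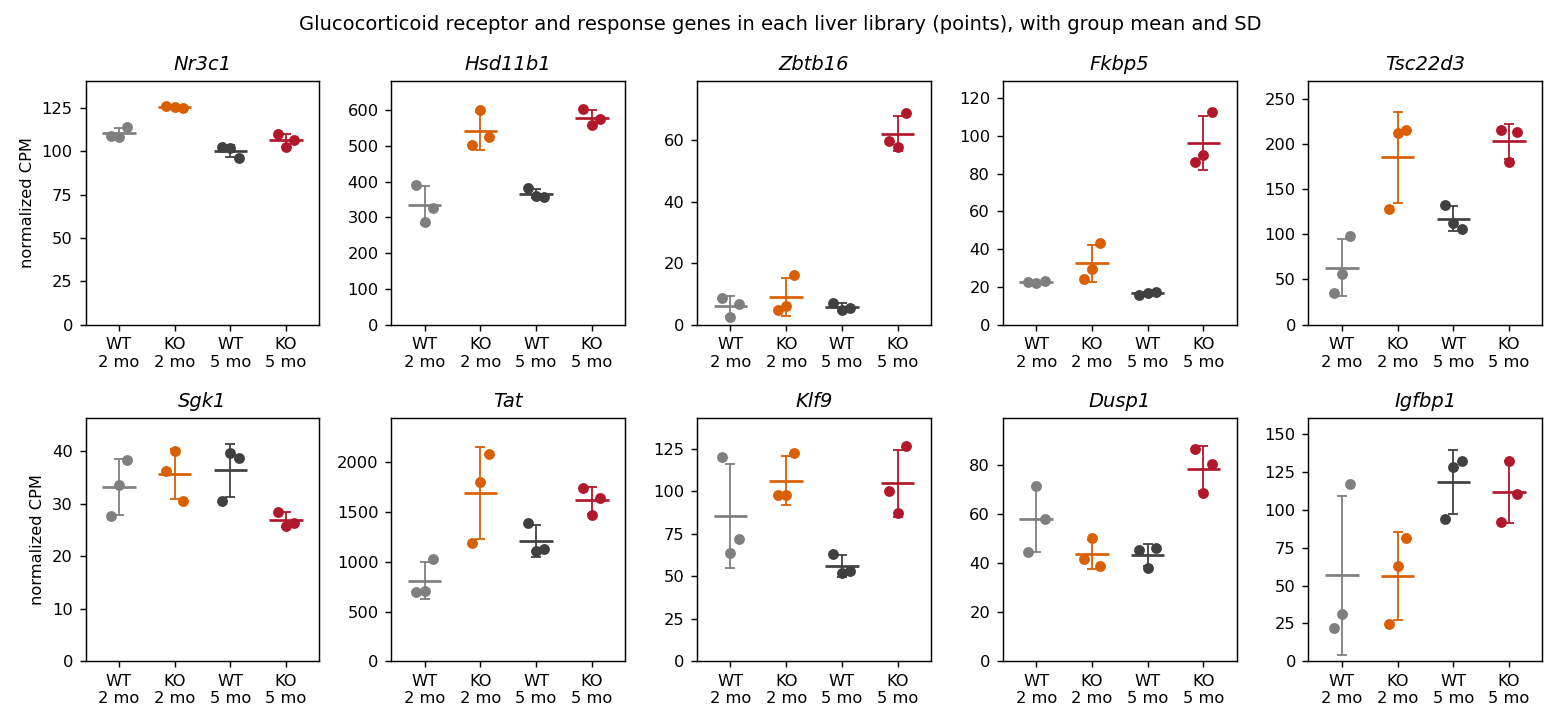
Normalized CPM (linear axis from 0) of the 10 genes in each library, with group mean (bar) and SD (n = 3). KO stands for libraries labelled PPARγ-KO and mo for months of diet. Zbtb16 and Fkbp5 stand far above every other group in the 5-month PPARγ-KO libraries, at 57.8 to 68.6 and 86.2 to 112 CPM.

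Ranked by CPM per kilobase of transcript in wild-type livers at 2 months (mean ± SD, n = 3), Tat was highest at 338 ± 78.4 and Hsd11b1 followed at 78.8 ± 12.4. Igfbp1 (37.2 ± 34.2), Klf9 (26.1 ± 9.35) and Dusp1 (21.5 ± 4.99) came next by mean, each within the spread of its neighbour. Igfbp1 libraries ran from 14.6 to 76.6, so this gene was not set apart from Hsd11b1 (67.6 to 92.0), Nr3c1 or Tsc22d3. Nr3c1 (14.9 ± 0.462) and Tsc22d3 (14.6 ± 7.34) could not be ordered either. Sgk1 (6.78 ± 1.08), Fkbp5 (2.38 ± 0.0558) and Zbtb16 (1.15 ± 0.59) were lowest. In libraries labelled PPARγ-KO at 5 months, Zbtb16 (11.75 ± 1.09 CPM per kilobase) and Fkbp5 (10.15 ± 1.51) stood above Sgk1 (5.49 ± 0.29), and their own order was within the spread.

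The receptor varied little. Nr3c1 (ENSMUSG00000024431, mm10 chromosome 18, 39410545 to 39491301) had 108 to 114 CPM in wild-type and 125 to 126 in the PPARγ-KO ones at 2 months. At 5 months it had 96.5 to 102.6 and 102.7 to 110.2 CPM. The groups did not overlap at either time, yet the difference was small, 0.19 ± 0.0638 (log2, SE) at 2 months (edgeR adjusted p = 0.151) and 0.10 ± 0.0607 at 5 months. Between 2 and 5 months Nr3c1 fell by 0.24 on the log2 scale in livers labelled PPARγ-KO (SE 0.0555), and its change in wild-type was -0.14 (adjusted p = 0.12).

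Hsd11b1 (ENSMUSG00000016194, chromosome 1, 193221634 to 193264075) encodes the enzyme that regenerates active corticosterone inside the hepatocyte. At 2 months wild-type replicates 1 to 3 had 391, 287 and 326 CPM and those labelled PPARγ-KO 501, 600.3 and 524. After 5 months wild-type had 381, 359.9 and 358 CPM and PPARγ-KO 603, 558 and 574. The groups were apart at both times, and the levels hardly moved with time. Hsd11b1 was 0.69 ± 0.121 higher (log2, SE) at 2 months, the 1 call among the 10 genes there (adjusted p = 0.018), where 3.56% of the 14573 genes tested were called and 1.78% were called higher. The call rested on all libraries but 1: without wild-type replicate 2 or 3, or without any PPARγ-KO replicate, adjusted p ran from 0.0545 to 0.0784. At 5 months the difference was 0.67 ± 0.0664. Lamb3, which lies over Hsd11b1 on the other strand, had at most 483 counts where Hsd11b1 had at least 5582.

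The remaining enzymes and carriers of the hormone did not move as one. Of 9 genes for glucocorticoid supply and clearance, 8 could be tested. At 2 months 1 was called higher and 1 lower, where 3.56% of all genes were called, 1.78% higher. In all, 7 of the 8 had higher values at 2 months. Of the 8, 6 were higher and 1 was lower without overlap, where 24.1% of all genes did not overlap and 12.1% were higher. At 5 months 2 were called higher and 1 lower, where 8.9% and 9.51% of all genes were. Akr1d1, which reduces steroid hormones for clearance, rose by 0.96 ± 0.133 at 2 months (adjusted p = 0.00986) and 1.24 ± 0.0873 at 5 months (adjusted p = 2.34e-06). Cyp3a11, which hydroxylates steroids and many drugs, fell by 0.47 (SE 0.0938, adjusted p = 0.0268) and 1.16 (SE 0.17, adjusted p = 0.00203) on the log2 scale. Ugt2b1, a conjugating enzyme, was higher by 0.61 ± 0.106 at 5 months (adjusted p = 0.00207).

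Fkbp5 (ENSMUSG00000024222, chromosome 17, 28399094 to 28517527) encodes FKBP51, a partner of heat shock protein 90 that lowers the receptor's affinity for hormone and is itself induced by it. Wild-type libraries had 22.5, 22.0 and 23.0 CPM at 2 months, and those labelled PPARγ-KO had 24.3, 29.7 and 43.2. At 5 months the wild-type libraries had 15.9, 16.7 and 17.2 CPM, and PPARγ-KO had 86.2, 89.6 and 112. The groups were apart at both times, narrowly at 2 months and widely at 5. The difference was 0.53 ± 0.195 at 2 months (adjusted p = 0.201) and 2.54 ± 0.104 at 5 months, a 5.82-fold higher level. The PPARγ-KO difference at 5 months exceeded that at 2 months by 2.00 ± 0.257 (interaction in 12 libraries), a value that contains the 5-month comparison. AC154912.1, an antisense transcript inside Fkbp5, had 35 to 41 counts in wild-type and 59 to 149 in PPARγ-KO libraries at 2 months, and 13 to 16 and 59 to 70 at 5 months. Fkbp5 had 413 to 454 counts in wild-type and 470 to 1162 in PPARγ-KO libraries at 2 months, and 268 to 330 and 1748 to 1827 at 5 months. Without knowing whether counting used the strand, reads from the stretch that AC154912.1 and Fkbp5 share cannot be told apart.

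Zbtb16 (ENSMUSG00000066687, chromosome 9, 48654297 to 48836222) encodes PLZF, a zinc finger transcription factor that glucocorticoids induce in many tissues and that also marks natural killer T cells. Wild-type libraries had 8.73, 2.62 and 6.80 CPM at 2 months, and those labelled PPARγ-KO had 4.71, 6.04 and 16.0. The 5-month wild-type libraries had 7.11, 4.78 and 5.32 CPM, and PPARγ-KO had 59.8, 57.8 and 68.6. The groups overlapped at 2 months and were far apart at 5 months. At 2 months the difference was 0.58 ± 0.66 (adjusted p = 0.704), and without PPARγ-KO replicate 3, the highest, it was -0.17. At 5 months the level was 10.9-fold higher (log2 3.45 ± 0.124), and this rise is among the values for which the genes were chosen. The difference between the times was 2.83 ± 0.728, and 3.605 without PPARγ-KO replicate 3 of 2 months. Over 14 markers of T, NK and NKT cells the summed level was 14.9 to 26.4 CPM in wild-type and 8.64 to 17.1 in PPARγ-KO at 5 months, so the groups overlapped. None of the markers was at 0 in a whole group. Of the 11 that could be tested all had negative differences and 1 was called lower, where 9.51% of all genes were. The untested ones were at 0 to 11 counts per library at 5 months. Klrb1c had means of 0.269 CPM in wild-type and 0.432 in PPARγ-KO, and Gata3 of 0.131 and 0.147. Tbx21 went the other way, with 0.391 and 0.188. The part of these cells in the level of Zbtb16 was not tested.

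Tsc22d3 (ENSMUSG00000031431, chromosome X, 140539528 to 140600659) encodes GILZ, a leucine zipper protein that carries part of the anti-inflammatory action of glucocorticoids. At 2 months wild-type libraries had 35.2, 56.5 and 97.8 CPM, and those labelled PPARγ-KO had 127, 212 and 215. At 5 months wild-type had 133, 113 and 106 CPM, and PPARγ-KO had 215, 180.4 and 213. PPARγ-KO libraries were higher without overlap at both times, and the replicates of 2 months were widely spread. The difference was 1.55 ± 0.463 at 2 months (adjusted p = 0.184) and 0.80 ± 0.0918 at 5 months. With the replicate number as a block the 2-month difference was 1.63 (adjusted p = 0.0126). That block takes same-numbered libraries as pairs because they deviated together in these data, and no label pairs them. Its calls are therefore a description.

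Tat (ENSMUSG00000001670, chromosome 8, 109990437 to 109999803), tyrosine aminotransferase, starts the breakdown of tyrosine and is a classical hormone-induced liver enzyme. At 2 months wild-type libraries had 702, 704 and 1029 CPM, and those labelled PPARγ-KO had 1189, 1808 and 2082. After 5 months wild-type had 1396, 1110 and 1133 CPM, and PPARγ-KO had 1740, 1469 and 1647. Again no PPARγ-KO library fell below a wild-type one at the same time. The difference was 1.06 ± 0.248 at 2 months (adjusted p = 0.0776). With the same block, which no label gives, it was 1.05 (adjusted p = 0.00243). At 5 months it was 0.43 ± 0.098, and it dropped below the call without wild-type replicate 2 (0.37) or 3 (0.38) and when all 12 libraries were fitted together (0.42). Tsc22d3 also lost its 5-month call in that joint fit (0.79). Over the 12 libraries the log2 CPM of Tat and Tsc22d3 correlated at r = 0.963, a description of libraries that share groups.

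Klf9 (ENSMUSG00000033863, chromosome 19, 23141226 to 23166911) encodes a Krüppel-like transcription factor induced by glucocorticoid and thyroid hormone. At 2 months wild-type libraries had 120.2, 63.6 and 72.0 CPM, and those labelled PPARγ-KO had 97.6, 97.8 and 123. At 5 months the wild-type libraries had 63.2, 52.0 and 52.9 CPM, and PPARγ-KO had 100.2, 87.4 and 126. Wild-type replicate 1 alone made the groups overlap at 2 months. The 2-month difference was 0.31 ± 0.27 (adjusted p = 0.61), and without that library it was 0.65 and called (adjusted p = 0.00648). At 5 months it was 0.91 ± 0.14, with the groups apart.

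Dusp1 (ENSMUSG00000024190, chromosome 17, 26505590 to 26508519) encodes a phosphatase that switches off MAP kinases. At 2 months wild-type libraries had 44.5, 71.4 and 58.0 CPM, and those labelled PPARγ-KO had 41.5, 50.3 and 38.8. The 5-month wild-type libraries had 45.2, 38.0 and 46.2 CPM, and PPARγ-KO had 86.5, 68.4 and 80.2. The groups overlapped at 2 months, with the higher values in wild-type, and at 5 months every PPARγ-KO library was higher. The difference was -0.42 ± 0.18 at 2 months (adjusted p = 0.278) and -0.57 without wild-type replicate 1 (adjusted p = 0.0269). At 5 months it was 0.87 ± 0.097. The difference between the times was 1.28 ± 0.233, and it missed the threshold with the replicate block (1.275) and without any 1 of wild-type replicate 3 or PPARγ-KO replicates 1 and 3 at 2 months, or wild-type replicates 2 and 3 or PPARγ-KO replicate 3 at 5 months.

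Sgk1 (ENSMUSG00000019970, chromosome 10, 21882184 to 21999903), a kinase that acts on ion channels and transporters, is the gene with the palindrome printed above. At 2 months wild-type libraries had 27.8, 33.6 and 38.4 CPM, and those labelled PPARγ-KO had 36.3, 40.01 and 30.6. At 5 months wild-type had 30.6, 39.7 and 38.8 CPM, and PPARγ-KO had 28.5, 25.8 and 26.4. The groups overlapped at 2 months (0.10 ± 0.135, adjusted p = 0.762), and at 5 months every PPARγ-KO library was lower, the reverse of the other separated genes (-0.42 ± 0.0973). The 5-month difference was -0.35 without wild-type replicate 2 and -0.37 without replicate 3, and neither passed the threshold.

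Igfbp1 (ENSMUSG00000020429, chromosome 11, 7197782 to 7202546), a secreted binder of insulin-like growth factors that glucocorticoids raise and insulin lowers, had the largest SE of the 2-month difference among the 10 genes. Its level ran from 22.2 to 117 CPM in wild-type and 24.4 to 81.6 in PPARγ-KO libraries at 2 months, and from 94.0 to 132 and 92 to 132 at 5 months. The groups overlapped at both times, with differences of -0.01 ± 0.869 (adjusted p = 0.997) and -0.07 ± 0.187.

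Counted together, 5 of the 10 genes at 2 months (Nr3c1, Hsd11b1, Fkbp5, Tsc22d3 and Tat) were higher in every PPARγ-KO library than in every wild-type library and 0 were lower. Of all genes tested 24.1% did not overlap and 12.1% were higher in this way. Of the 10 hepatocyte markers 5 were higher in this way at 2 months too, and 0 were lower. The part of the make-up of cells in the 2-month count was not tested. With the replicate block, which takes the numbers as pairs though no label does, 3 of the 10 genes were called instead of 1, and 817 of all genes instead of 519. At 5 months 8 were higher without overlap and Sgk1 was lower, where 34.8% of all genes did not overlap, 15.8% higher and 19% lower. Of the 10, 7 were called higher and 1 lower at 5 months, against 18.4% of 14138 genes called (8.9% higher and 9.51% lower), and nothing is read from that count because the genes were chosen with this comparison in view. The median difference of the 10 was 0.423 at 2 months and 0.737 at 5 months, with medians of -0.00483 and -0.00577 over all genes. The difference between the times passed the threshold for Fkbp5 and Dusp1 of the 10, where 1.57% of 15127 genes were called, and nothing is read from this count either. With library size alone as scaling, no gene of the 10 changed direction at either time, but calls over all genes split 171 higher to 349 lower in place of 259 to 260 at 2 months and 889 to 1894 in place of 1258 to 1344 at 5 months.

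**Figure D2:**
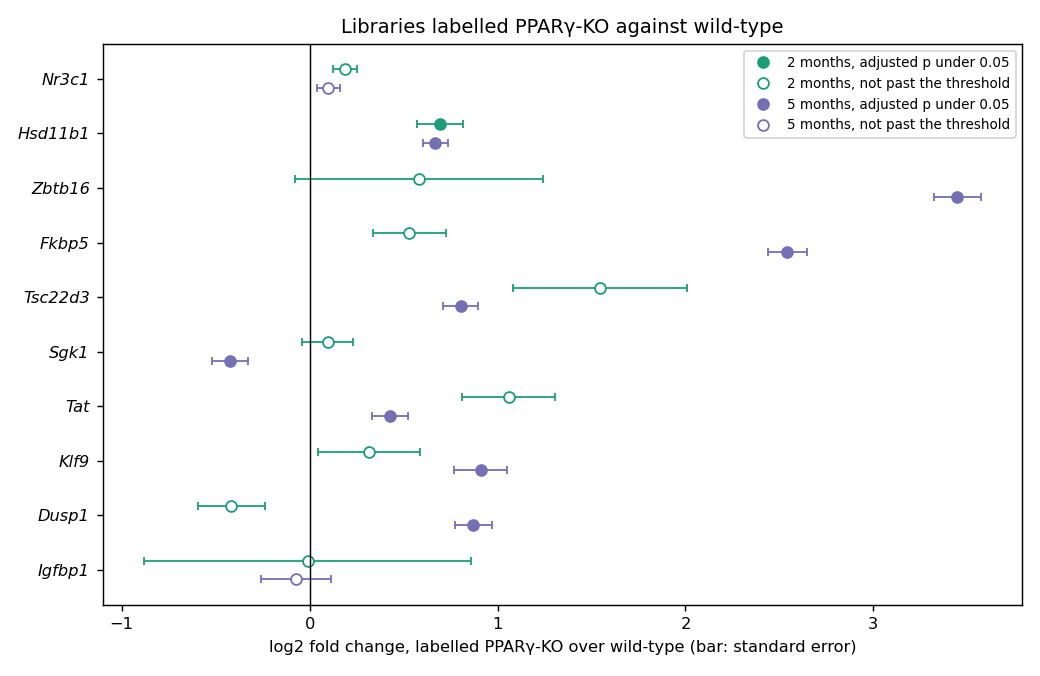
Log2 fold change (x axis) of the 10 genes, libraries labelled PPARγ-KO over wild-type, at 2 and 5 months of diet. Bars are standard errors of the edgeR fit (3 libraries a group) and filled points passed the adjusted threshold. At 2 months 1 gene is filled (Hsd11b1), and nothing is read from the filling at 5 months. At 5 months Zbtb16 (3.45) and Fkbp5 (2.54) lie furthest right and Sgk1 (-0.42) lies left of 0.

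Other cells and clocks moved with the 5-month comparison as well. Over all genes 8.9% were called higher and 9.51% lower at 5 months. Macrophage markers summed to 1318 to 1527 CPM in wild-type and 606 to 829 in PPARγ-KO libraries, with 7 of 8 called lower. Stellate cell markers summed to 444.8 to 543.9 and 339.1 to 377.7 CPM, with 3 of 8 called lower and 0 higher. Endothelial markers summed to 327.1 to 339.5 and 284.7 to 309.2 CPM, with 4 of 8 called lower and 0 higher. Of 10 hepatocyte markers 6 were higher and 4 lower, with 2 called, both higher. Their sum was 58100 to 62560 CPM in wild-type and 76060 to 87630 in PPARγ-KO libraries. Most of that sum was Alb, with means of 36940 CPM in wild-type and 57050 in PPARγ-KO. Fewer cells of a type and less RNA per cell cannot be told apart in whole liver. All 18 circadian clock genes had higher values in PPARγ-KO libraries at 5 months and 8 were called higher, where 8.9% of all genes were. They were led by Ciart (2.81 ± 0.448, adjusted p = 0.00319), a repressor within the clock, and Per2 (0.79 ± 0.178, adjusted p = 0.017). At 2 months, where 3.56% of all genes were called, 13 of the 18 were higher and 0 were called. Their part in the change of the 10 genes was not tested.

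A further 30 genes known to answer to glucocorticoids in liver or elsewhere were tallied from a list. Like the other lists here, it was chosen with earlier results of these data known. Its counts beside all genes, and its p-values, are therefore a description. At 2 months 29 could be tested and 1 was called, where 3.56% of all genes were. It was Klf15, a regulator of amino acid breakdown, which rose from 145 ± 19.6 to 226 ± 38.3 CPM (SD, n = 3 each) or by 0.64 ± 0.14 (adjusted p = 0.0482). At 5 months 12 of 30 were called higher, 5 lower and 13 did not pass, with a median of 0.318, where 8.9% of all genes were called higher and 9.51% lower. Arrdc2, an arrestin-domain protein, rose from 8.19 ± 0.619 to 49.0 ± 21.2 CPM (2.59 ± 0.41, adjusted p = 0.0182). Lpin1, a phosphatidate phosphatase and coactivator, rose from 88.7 ± 8.64 to 394 ± 41.2 CPM (2.16 ± 0.0902, adjusted p = 6.76e-08). Ddit4, an inhibitor of the growth kinase mTORC1, rose from 19.6 ± 2.23 to 60.9 ± 8.67 CPM (1.65 ± 0.114, adjusted p = 6.6e-06). The largest falls were in acute phase genes, which inflammatory cytokines also drive. Saa1 fell from 985 ± 240 to 329 ± 65.8 CPM (adjusted p = 0.0125) and Lcn2 from 272 ± 73.3 to 105 ± 13.5 (adjusted p = 0.0229). G6pc, which releases glucose from the liver, fell from 531 ± 2.14 to 334 ± 27.1 CPM (adjusted p = 6.06e-05). The list thus split by gene, and the hormone-induced genes in it did not all move one way.

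**Figure D3:**
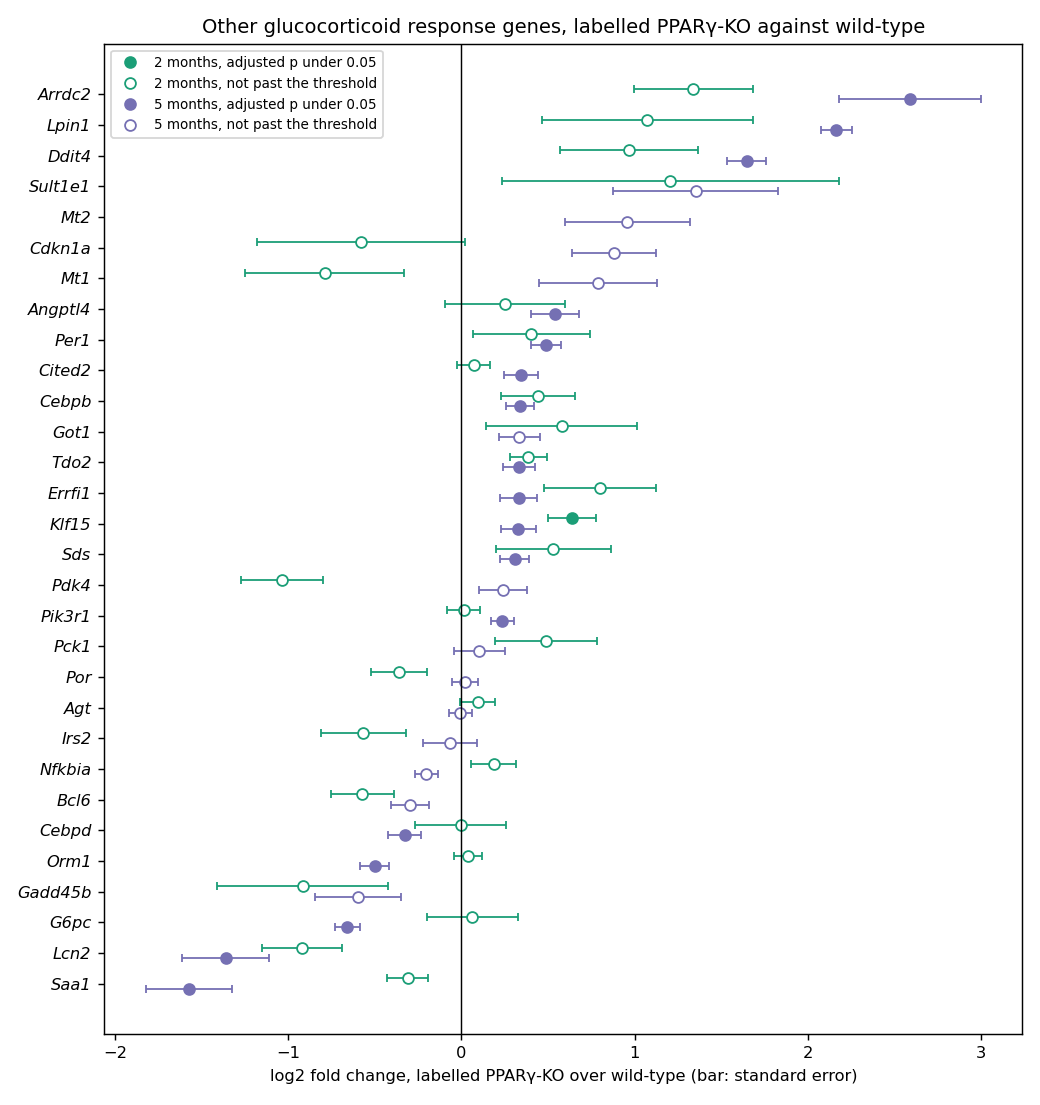
Log2 fold change (x axis), libraries labelled PPARγ-KO over wild-type, of 30 further glucocorticoid response genes ordered by their value at 5 months, with standard errors (3 libraries a group). Filled points passed the adjusted threshold. At 5 months 12 filled points lie right of 0, led by Arrdc2 (2.59) and Lpin1 (2.16), and 5 lie left, the furthest being Saa1 (-1.57). Mt2 could be tested at 5 months only. The list was chosen with earlier results of these data known.

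Over all genes 3.56% were called at 2 months and 18.4% at 5 months. Of 16 receptor chaperones and coregulators, 1 was called at 2 months. Fkbp4, a partner of heat shock protein 90 that opposes FKBP51, was higher by 0.49 ± 0.0807 at 2 months (adjusted p = 0.0144), with 119 ± 11.1 CPM in wild-type and 168 ± 5.51 in PPARγ-KO libraries. At 5 months its levels were 230 ± 15.4 and 234 ± 6.24 CPM, the values of the groups overlapping. Of 12 immediate early genes, fast-responding genes that also answer to handling and stress, 1 was called lower at 2 months (Junb, -0.64 ± 0.134) and, at 5 months, 2 higher (Zfp36, 0.53 ± 0.0814; Ier2, 0.42 ± 0.0983) and 3 lower (Ier3, Atf3 and Klf6, -1.31 to -0.51).

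In wild-type livers Tat was higher at 5 than at 2 months by 0.58 ± 0.159 (adjusted p = 0.0149). Fkbp5 fell by 0.44 on the log2 scale (SE 0.0907, adjusted p = 0.0025). These were the 2 calls among the 10, where 46.4% of 14491 genes were called, 23.8% higher and 22.7% lower. The 5-month wild-type libraries were part of the comparison in view when the genes were chosen. A low value in them widens that comparison, so the calls and p-values here are a description. Tat lost its call without wild-type replicate 1 of 2 months (0.49, adjusted p = 0.0643) or of 5 months (0.48, adjusted p = 0.0563). Fkbp5 had an adjusted p of 0.0765 when all 12 libraries were fitted together. In wild-type, changes of Tsc22d3 (0.89, adjusted p = 0.143) and Igfbp1 (1.06, adjusted p = 0.313) were called only without wild-type replicate 3 of 2 months, the highest of its group for both, at 1.35 (adjusted p = 0.00332) and 2.14 (adjusted p = 0.000497). Klf9 stood at -0.61 (adjusted p = 0.12), Dusp1 at -0.43 (adjusted p = 0.0694) and Hsd11b1 at 0.13 (adjusted p = 0.367), and all 3 were called without wild-type replicate 1 of 2 months, at -0.27 (adjusted p = 0.0318), -0.58 (adjusted p = 0.00113) and 0.26 (adjusted p = 0.0201).

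In livers labelled PPARγ-KO, 5 of the 10 were called between the times, 3 higher and 2 lower, where 44.9% of 14478 genes were (22.7% higher and 22.2% lower). These 5 stand as a description, since the same 5-month libraries entered the choice of genes. The level at 5 months was higher by 2.74 ± 0.503 for Zbtb16, 1.56 ± 0.249 for Fkbp5 and 0.85 ± 0.114 for Dusp1. Nr3c1 (above) and Sgk1, by 0.40 (SE 0.0988), fell. Among the genes that did not pass, Igfbp1 had the largest value, 0.98 ± 0.497, with every 5-month library above those of 2 months. Tat (-0.07), Tsc22d3 (0.13), Klf9 (-0.02) and Hsd11b1 (0.09) lay near 0.

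**Figure D4:**
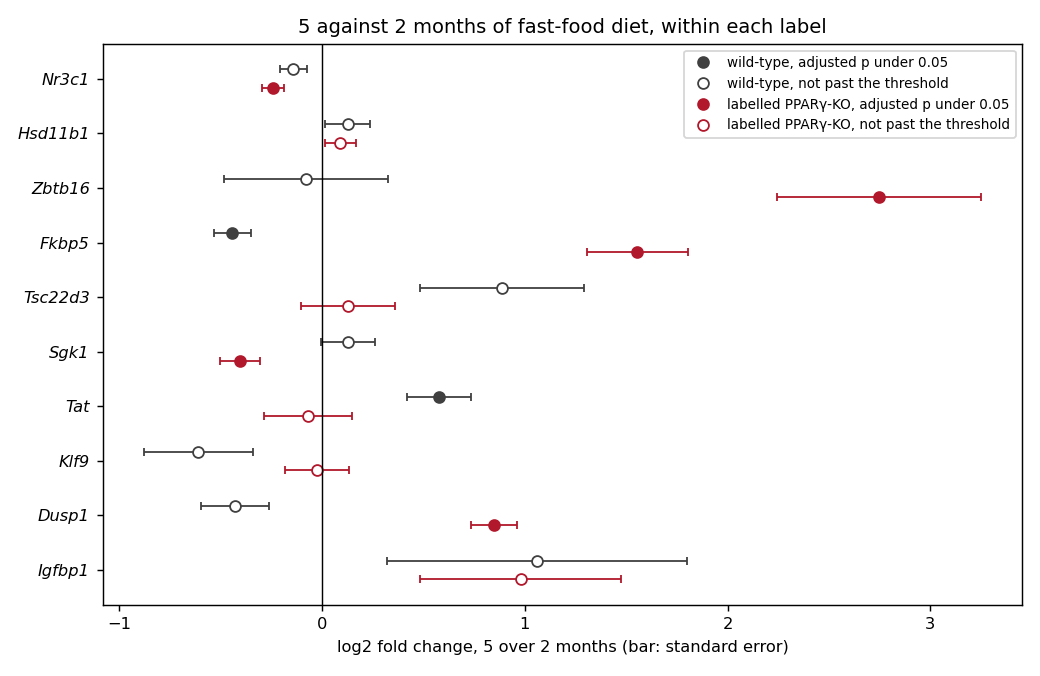
Log2 fold change (x axis) of the 10 genes, 5 over 2 months of diet, in wild-type and in libraries labelled PPARγ-KO. Bars are standard errors of the edgeR fit (3 libraries a group) and filled points passed the adjusted threshold. Zbtb16 (2.74) and Fkbp5 (1.56) lie far right in PPARγ-KO, with Fkbp5 at -0.44 in wild-type. Nothing is read from the filling of the PPARγ-KO points, and that of the wild-type points is a description.

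The clock genes differed between the times in both genotypes. In wild-type 4 of 18 were called higher and 13 lower, where 46.4% of all genes were called. In PPARγ-KO 4 were called higher and 12 lower, where 44.9% of all genes were called. Per3, a clock repressor, fell by 2.81 (wild-type, adjusted p = 4.48e-05) and 2.23 (PPARγ-KO, adjusted p = 0.0029) on the log2 scale, and Arntl, which encodes the activator BMAL1, rose by 2.13 (adjusted p = 9.2e-06) and 1.63 (adjusted p = 9.14e-05). Months of diet, age, the hour of collection and any difference in library preparation cannot be told apart in the changes of the 10 genes over time.

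Genes whose log2 CPM followed Zbtb16 and Fkbp5 most closely over the 12 libraries were looked up among 15126 genes. For Zbtb16 they were Arhgap5 (r = 0.95), Il6ra (0.946), 1810053B23Rik (0.941), Fkbp5 itself (0.939) and Prob1 (0.928). Il6ra, the interleukin-6 receptor chain, had mean levels of 25.4 and 39.6 CPM in wild-type and PPARγ-KO at 2 months and 26.1 and 65.4 at 5 months. For Fkbp5 they were Tmem106b (r = 0.952), Gm11914 (0.951), Baiap2 (0.949), Susd6 (0.948) and Zbtb16 (0.939). The libraries share groups, so r is given as a description only. Nr3c1 followed neither gene, with r = -0.107 to Zbtb16 and 0.0877 to Fkbp5.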

How the data were processed

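The authors deposited raw counts of reads per gene for each library, 54532 genes on mm10, with no normalization. Reads were aligned by the sequencing company. The study's methods name STAR and the submitters' processing notes name HISAT2, and the program that counted reads, the annotation and the use of strand are not given in the sources used here. The 10 genes, the other lists and the tests were chosen with earlier results of these data known. Each pair of groups was fitted alone with edgeR 4.0.16 (R 4.3.3): filterByExpr, TMM scaling, robust quasi-likelihood F-test (two-sided), Benjamini-Hochberg over all genes tested, threshold 0.05. The difference between the times was an interaction in all 12 libraries. Standard errors were derived from the F statistic. The scripts were tested on simulated data. Normalized CPM used TMM factors of all 12 libraries, and correlations log2 CPM with a pseudocount of 0.5. Replicates differed by more than counting noise, with chi-square per gene of 2.35 to 28.68, so none was a copy. Same-numbered libraries correlated at 0.22, 0.324 and 0.14 between genotypes at 2 months, after removal of group means, over 5000 genes. The block took the numbers as pairs there, though no label pairs them. Libraries with different numbers correlated at up to 0.114 between genotypes at 2 months. Across the times, wild-type replicate 3 of 5 months and replicate 2 of 2 months correlated at 0.266. At 5 months the correlations of same-numbered libraries between genotypes were -0.0779, -0.0603 and -0.179. Named genes were the 10, Pparg, per list and comparison up to 6 called genes of largest change, and the 5 closest in pattern to Zbtb16 and to Fkbp5. Alternatives were DESeq2 1.42.0, its size factors, unscaled library sizes, testing without a filter or with 10 or more counts in each library, an unadjusted p below 0.05 with 1.3-fold change, the replicate block, a joint fit and leaving out each library. A result of the coregulator list is not reported here.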

Additional observations from a re-analysis of the deposited data

Results flagged for a closer look

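For 14 of the genes examined, Pparg and the listed cell markers included, the difference between PPARγ-KO and wild-type itself differed between 5 and 2 months (edgeR interaction term, adjusted p below 0.05). Of the 10 genes described, the effect on Fkbp5 was larger at 5 months by 1.9979 on the log2 scale and on Dusp1 by 1.2779. Both are given with no p because the 5-month comparison entered the choice of these genes. Dusp1 was lower at 2 months (-0.42) in PPARγ-KO, not called and with overlapping groups, and higher at 5 (0.87). Its shift missed the threshold in 7 of 19 alternatives, that of Fkbp5 in 0. Nothing is read from these counts, because the alternatives reuse the values that entered the choice of genes. The effect on Orm1, an acute phase protein, was 0.04 at 2 and -0.50 at 5 months, a shift of -0.5521 (adjusted p = 0.0251). Fkbp4 and Ptges3, both partners of heat shock protein 90, shifted by -0.46866 and -0.42973 (adjusted p = 0.0359 for each), from 0.49 and 0.31 at 2 months to 0.03 and -0.11 at 5. The clock genes Ciart, Cry2 and Hlf shifted by 2.7943, 0.62697 and 0.52252 (adjusted p = 0.0338, 0.0357 and 0.0212), from differences of 0.01 to 0.06 at 2 months. Junb, an immediate early gene, shifted by 0.82021 (adjusted p = 0.0221), from -0.64 to 0.19. Pparg, the targeted gene, was higher in libraries labelled PPARγ-KO at both times (0.52 and 1.15), more so at 5 months by 0.62451 (adjusted p = 0.0432). Among cell markers, the macrophage genes Clec4f, Csf1r and Cd5l shifted by -1.1046, -0.9225 and -1.0396 (adjusted p = 0.000988, 0.0112 and 0.0112) and the endothelial gene Clec4g by -0.76965 (adjusted p = 0.00859). For Trf, a hepatocyte marker, and Cd4, a T cell marker, every PPARγ-KO library was higher than wild-type at 2 months and lower at 5, but the shifts of -0.37352 and -1.454 did not pass the threshold (adjusted p = 0.0692 and 0.205). Time of diet, age and any batch between the times cannot be told apart in these shifts.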

How the results depend on the processing

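At 2 months the 519 genes and 1 of the 10 called became 988 and 3 with DESeq2, 1562 and 3 with no filter, 1608 and 4 with an unadjusted p and 1.3-fold change, 817 and 3 with the replicate block, and 1153 and 3 in the joint fit. Leaving out 1 library gave 117 to 1577 genes (lowest without wild-type replicate 2, highest without replicate 1) and 0 to 3 of the 10. At 5 months leaving out 1 library gave 1593 to 3078 genes, lowest without wild-type replicate 3, and 6 to 8 of the 10. For wild-type over time, the 2 called of the 10 became 4 with DESeq2, 4 with library size alone, 1 in the joint fit and 1 to 4 without 1 library. For the difference between the times, 238 genes became 594 with DESeq2, 793 with no filter, 1563 with the unadjusted rule and 83 to 567 without 1 library. The 2 of the 10 became 4 with the unadjusted rule, 1 with the replicate block and 1 to 2 without 1 library. Zbtb16 was called as well with DESeq2, and Sgk1 with no filter. Values that changed sign were all below the call. With the block Igfbp1 at 2 months was 0.19 and Zbtb16 in wild-type over time 0.01147. Without 1 library the ranges were, at 2 months, -0.17 to 0.95 for Zbtb16, -0.01629 to 0.21 for Sgk1 and -0.39 to 1.079 for Igfbp1; -0.22 to 0.052 for Igfbp1 at 5 months; -0.44 to 0.28 for Zbtb16 in wild-type over time; in PPARγ-KO over time -0.078 to 0.25 for Tsc22d3, -0.27 to 0.11 for Tat and -0.18 to 0.10 for Klf9; and, between the times, -0.16 to 0.064 for Hsd11b1 and -1.16 to 0.31 for Igfbp1. Of 750 changes of the 10 genes under the alternatives, 671 kept direction and side of the threshold, 32 gained a call, 22 lost one and 25 changed sign. The block changed, besides the calls of Tsc22d3, Tat and Dusp1 given above, that of Klf9 in wild-type over time (-0.56, adjusted p = 0.0109). With 3 libraries a group, small differences could not be resolved.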
